A study of Mus musculus with 35 samples.

Results

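The genes described here are 10 that serve the contraction of the myoepithelium: Acta2, Myh11, Cnn1, Myl9, Mylk, Tagln, Ppp1r14a, Synm, Dmd and the oxytocin receptor gene Oxtr. They were taken by name, through the array probe sets that carry a single gene symbol, and each of the 10 had exactly 1 such probe set among the 19937 genes measured. The study asked how an early pregnancy changes gene expression in the cell subpopulations of the mouse mammary gland. Parous mice were mated at 42 days of age and were then given 21 days for lactation and 40 days for involution, in which the gland regresses once suckling ends. Virgin mice of the same age were the nulliparous controls, and no strain or genotype is given in the sources used here. Cells of the 4th mammary glands were sorted into stromal cells, total epithelial cells, luminal Sca1-negative and Sca1-positive cells, and basal CD49f-low and CD49f-high cells. Sca1 and CD49f are surface proteins, and CD49f is an integrin alpha chain. There were 35 samples in 12 groups of 6 subpopulations and 2 histories, each sample being cells pooled from 5 mice and run on 1 array. Groups held 3 samples, but that of parous basal CD49f-high cells held 2, numbered 2 and 3, since the submitters dropped a replicate that had hybridised poorly.

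Myoepithelial cells form the outer, basal layer of mammary ducts and alveoli and are smooth-muscle-like epithelial cells. During suckling, oxytocin from the pituitary binds its receptor, a G protein-coupled receptor on these cells, and calcium released inside the cell activates myosin light chain kinase, so that the cells contract and milk is ejected. Smooth muscle genes of this kind are known targets of serum response factor (SRF) and its myocardin-family partners, which bind the CArG box, a short A- and T-rich element.

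Promoter sequence is shown for the genes whose level differed most with history, Ppp1r14a, Synm and Dmd. It is also shown for Myl9, the other gene in which an exact CArG box was found. The sequences are RefSeq's for build GRCm38.p6, 5′ to 3′ on the gene's strand, and capitals mark the CArG box. Except for Myl9 they cover the 250 bases before an annotated transcription start: chr7:29289070-29289319 (+) for Ppp1r14a, chr7:67759743-67759992 (-) for Synm and chrX:82948620-82948869 (+) for Dmd. The first 2 lie just upstream of their genes, and the Dmd window precedes an internal start, within the gene's annotated span of chrX:82814664-85205050. The start used for Myl9 lies inside its annotated gene, and the sequence shown, chr2:156775214-156775407 (+), runs from 250 to 57 bases before that start, since it was cut at the gene's first annotated base; the motif search covered the uncut window.
Ppp1r14a: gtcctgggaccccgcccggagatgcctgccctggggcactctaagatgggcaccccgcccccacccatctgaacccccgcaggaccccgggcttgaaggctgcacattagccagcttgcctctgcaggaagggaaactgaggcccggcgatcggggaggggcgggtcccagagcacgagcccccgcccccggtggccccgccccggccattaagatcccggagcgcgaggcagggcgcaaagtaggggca
Synm: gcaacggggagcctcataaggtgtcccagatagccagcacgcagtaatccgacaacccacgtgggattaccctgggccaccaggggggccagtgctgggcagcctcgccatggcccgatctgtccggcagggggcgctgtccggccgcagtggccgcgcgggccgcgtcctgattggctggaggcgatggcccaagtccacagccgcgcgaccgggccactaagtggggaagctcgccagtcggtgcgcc
Dmd: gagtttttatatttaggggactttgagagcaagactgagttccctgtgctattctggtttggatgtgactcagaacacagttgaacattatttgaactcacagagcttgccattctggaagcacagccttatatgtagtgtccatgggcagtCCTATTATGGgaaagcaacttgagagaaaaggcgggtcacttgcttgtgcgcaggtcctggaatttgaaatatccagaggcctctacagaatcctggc
Myl9: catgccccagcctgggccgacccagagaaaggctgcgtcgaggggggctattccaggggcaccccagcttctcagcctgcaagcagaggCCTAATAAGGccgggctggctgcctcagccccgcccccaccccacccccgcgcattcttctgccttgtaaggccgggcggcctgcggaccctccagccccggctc
RefSeq promoter windows were matched for 8 of the 10 genes, 9 windows in all, and not for Myh11 or Tagln. The CArG box was searched on both strands as an exact match to CCWWWWWWGG, where W is A or T. In that form it was present in 2 of the 8 genes. These were CCTAATAAGG at 161 to 152 bases before the same start of Myl9, and CCTATTATGG at 98 to 89 bases before that start of Dmd. Of all 32851 promoter windows of this length, 482 (1.47%) held the exact form. Forms 1 base off were not counted, such as ccctatatgg and ccttgtttgg in the Acta2 window and cctcataagg in that of Synm. The letters CATTCC, the core bound by TEAD factors, were present in Acta2 and Mylk and in 12.6% of all windows. TTCNNNGAA, the form bound by STAT factors, was in none of the 8 genes and in 7.02% of all windows. These matches describe the letters only; no binding was measured.

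Values are the deposited log2 expression values, so that a difference of 1 is a doubling, and levels of different genes are not compared because their probe sets differ. Over all genes, replicates of 10000 cells correlated at 0.977 to 0.991 and those of 2000 cells, which are the basal CD49f-high samples, at 0.963 to 0.978. The spread of samples around their group mean averaged 0.257 for basal CD49f-high cells, and elsewhere 0.175 to 0.199. The sort labels were checked against markers. The mean level of 7 basal keratinocyte-type markers, such as Krt5 and Krt14, was 9.54 to 9.66 in the basal groups and 6.52 to 7.07 in the luminal groups. The mean of 13 luminal markers was 9.74 to 9.84 in the luminal and 7.52 to 8.06 in the basal groups, and that of 10 fibroblast markers was 10.16 to 10.43 in stromal groups and 5.84 to 6.86 elsewhere. In sorted bulk samples, fewer cells of a type and less RNA per cell cannot be told apart.

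Basal cells were compared with luminal cells to place the 10 genes in the gland. All 10 were higher in basal cells, against a background of 35.0% of all genes called in either direction and 15.5% called higher (limma, adjusted p under 0.05 over all genes). The thin filament and motor genes stood furthest apart. Cnn1, the actin-binding protein calponin, differed by 5.23 (SE 0.10), Myl9, the regulatory light chain of myosin, by 4.78 (SE 0.11), Myh11, the smooth muscle myosin heavy chain, by 4.69 (SE 0.10) and Acta2, smooth muscle actin, by 4.47 (SE 0.09). Tagln, the actin-associated transgelin, differed by 3.47 and Mylk, the kinase that phosphorylates the light chain, by 2.01. Synm, the intermediate filament protein synemin, differed by 2.17, Ppp1r14a, an inhibitor of myosin phosphatase, by 1.72, and Dmd, dystrophin, which ties the actin cytoskeleton to the membrane, by 1.39. Oxtr had the smallest difference, 0.90 (SE 0.12, adjusted p = 2.59e-07). For 7 of the genes every basal sample was above every luminal one, which held for 2.52% of all genes; the samples overlapped for Ppp1r14a, Dmd and Oxtr.

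**Figure D1:**
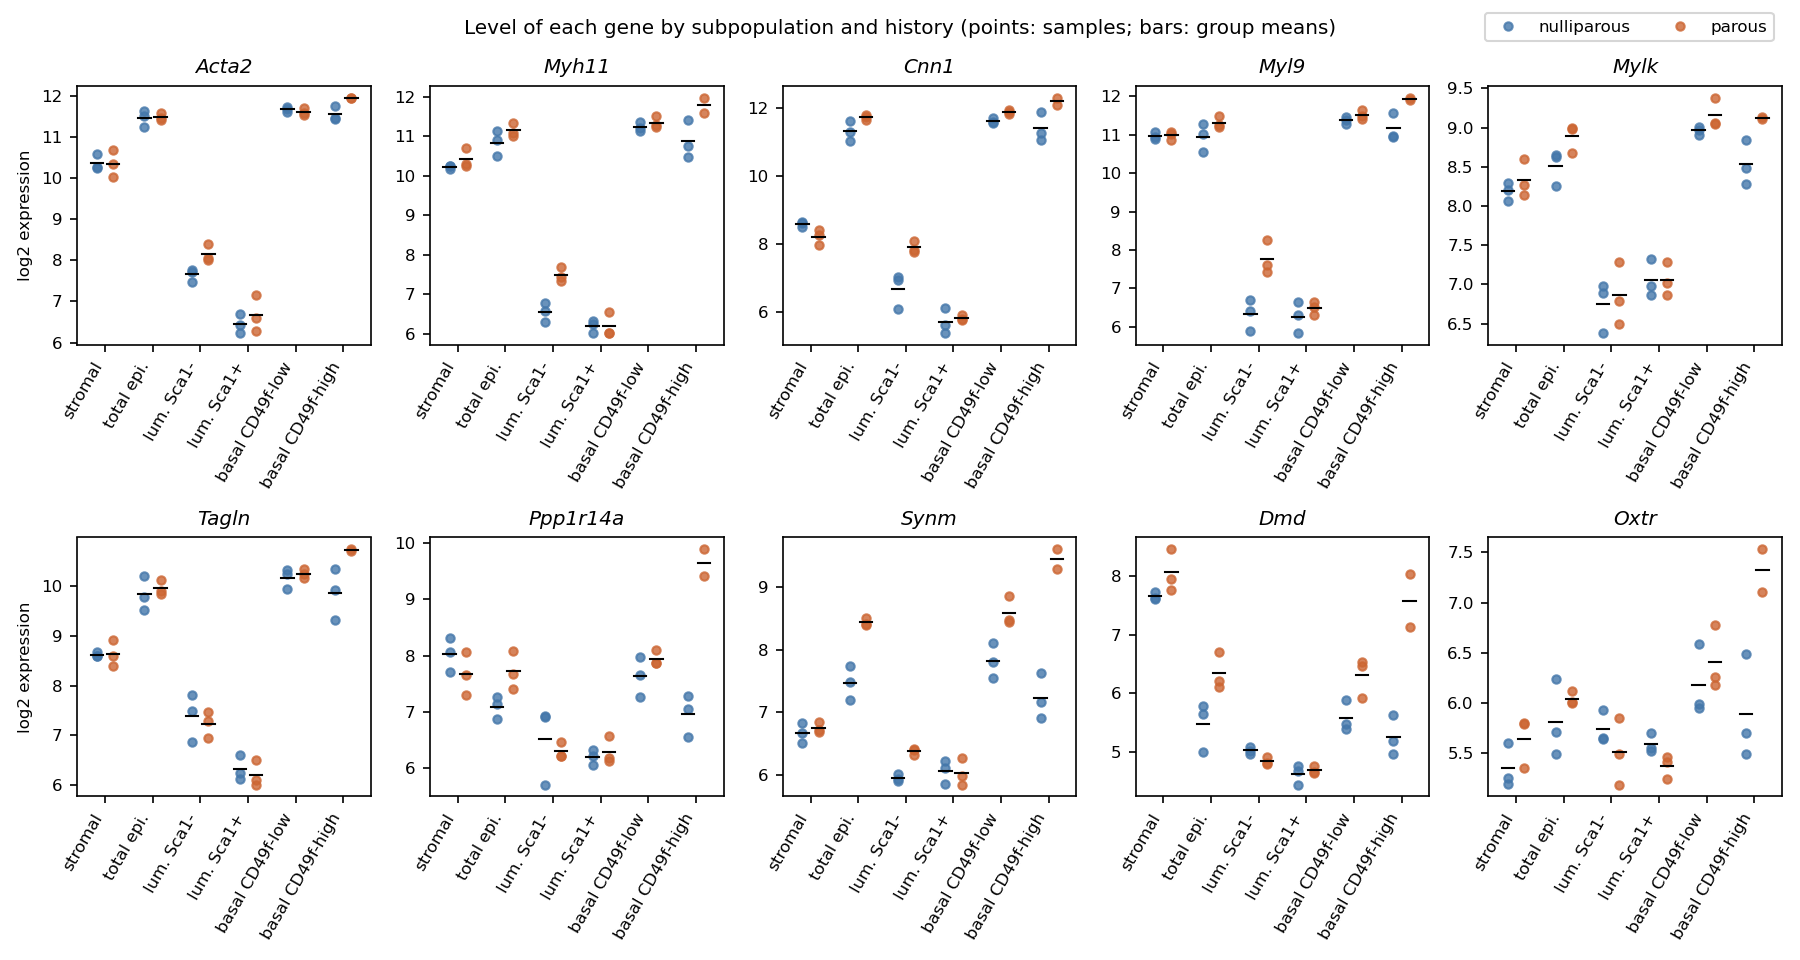
Log2 expression (y axis) of each of the 10 genes in the 6 subpopulations (x axis), with 1 point per sample, nulliparous in blue and parous in orange, and black bars at the group means; each panel has its own y scale. The luminal groups lie lowest for Cnn1, Myl9, Myh11 and Acta2, and the 2 parous basal CD49f-high samples lie above the 3 nulliparous ones in all 10 panels.

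The order of the subpopulations, averaged over history, was shared by most of the genes; in the 15 pairs of subpopulations, 2.25% to 37.0% of all genes were called. For Acta2, Myh11, Cnn1 and Tagln the basal CD49f-high, basal CD49f-low and total epithelial levels did not differ beyond their spread (for Acta2 11.76, 11.65 and 11.48). Synm had the same order with no neighbours among the 3 differing, but was lower in total epithelial than in basal CD49f-high cells, at -0.38 (SE 0.13, adjusted p = 0.0436). In these 5 genes stromal cells came next (10.36 for Acta2) and differed from total epithelial cells. Luminal Sca1-negative cells followed, and Sca1-positive cells were lowest, with 6.56 for Acta2. For Synm the luminal groups, at 6.16 and 6.04, did not differ from each other. Mylk had the same upper order, with basal CD49f-low first (9.06), and its luminal levels, 7.06 and 6.81, did not differ. Myl9 was 11.55, 11.44 and 11.13 in basal CD49f-high, basal CD49f-low and total epithelial cells and 10.97 in stromal cells, with no neighbour in that run differing. Ppp1r14a had its highest mean in basal CD49f-high cells (8.31), but this did not differ from stromal (7.85), which did not differ from basal CD49f-low cells (7.79). Dmd was the exception: its highest level, 7.86, was in stromal cells and exceeded the next, 6.42 in basal CD49f-high cells, by 1.44 (SE 0.17, adjusted p = 5.23e-08). Oxtr fell from 6.61 in basal CD49f-high to 5.48 in luminal Sca1-positive cells, and no pair of neighbours in its order differed. Its stromal and luminal levels (5.48 to 5.63) were below every array median (5.81 to 5.92), as were the luminal levels of Dmd (4.93 and 4.65). In nulliparous basal CD49f-high cells the mean of Dmd, 5.26, was below them too, and that of Oxtr was 5.89. Whether levels this low stand above background was not tested.

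Basal CD49f-low cells were set against stromal cells because the stroma holds vascular smooth muscle and pericytes, which use many of the same genes. Of the 10 genes, 8 were higher in the basal cells and 1 was lower, against 26.4% of all genes called. Cnn1 was higher by 3.34 (SE 0.14), Tagln by 1.58, Synm by 1.50, Acta2 by 1.29, Myh11 by 0.97, Mylk by 0.80, Oxtr by 0.79 and Myl9 by 0.47 (SE 0.15, adjusted p = 0.0182). Dmd was lower by 1.91 (SE 0.16), and Ppp1r14a, at -0.06 (SE 0.19), did not pass the test. Of 12 pericyte and vascular smooth muscle markers, 11 were lower in basal CD49f-low cells. Their mean was 7.16 ± 0.13 in nulliparous and 7.32 ± 0.08 in parous stromal samples (SD, n = 3 each) and 5.65 to 5.98 in the other groups; their part in the stromal levels was not tested. Of 15 dystrophin complex and intermediate filament partners, 3 were higher and 5 lower in basal CD49f-low than in stromal cells. Sgce, a sarcoglycan, differed by -4.17 and Lama2, a laminin chain that the complex binds, by -4.53, while Dag1, dystroglycan, was higher in basal cells by 0.84.

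The basal and the luminal subpopulations were then split. Between basal CD49f-high and CD49f-low cells, averaged over history, none of the 10 genes passed the test, 2 had an unadjusted p under 0.05 (Ppp1r14a at 0.52 and Dmd at 0.48), and 3.54% of all genes were called. The 95% confidence intervals ran from -0.26 to 0.36 for Cnn1 and from -0.15 to 0.38 for Acta2. Between luminal Sca1-positive and Sca1-negative cells, 5 genes were lower in Sca1-positive cells, where 16.1% of all genes were called: Cnn1 at -1.52 (SE 0.14), Acta2 at -1.34, Tagln at -1.05, Myh11 at -0.82 and Myl9 at -0.68. Mylk, Ppp1r14a, Synm, Dmd and Oxtr did not pass. Of 7 basal keratinocyte-type markers, Krt5 (-0.76) and Krt14 (-0.57) were lower in Sca1-positive cells, Itgb4 (0.27) was higher and 4 did not pass; their part in these differences was not tested.

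The effect of parity, parous minus nulliparous, was tested in each subpopulation. In basal CD49f-high cells 8 of the 10 genes rose with parity and none fell, against 9.06% of all genes called and 4.01% called higher. The median difference of the 10 genes was 0.88, and that of all genes 0.04. The parous and nulliparous samples did not overlap for any of the 10 genes, with parous always higher, a pattern that 15.9% of all genes showed. The largest rises were not in the actin and myosin genes that stand furthest apart between basal and luminal cells but in Ppp1r14a, Dmd, Synm and Oxtr.

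Ppp1r14a was 7.28, 7.05 and 6.55 in the nulliparous and 9.41 and 9.89 in the parous basal CD49f-high samples. The gap between the groups exceeded the range within either, and the rise was 2.69 (SE 0.29, adjusted p = 8.48e-07), or 6.46-fold. Dmd was 5.63, 5.19 and 4.96 in nulliparous and 7.13 and 8.03 in parous samples. Both parous samples were above every nulliparous one but lay further from each other than the nulliparous samples did, and the rise was 2.32 (SE 0.25, adjusted p = 6.69e-07). Synm was 7.62, 7.17 and 6.90 against 9.29 and 9.61, a rise of 2.22 (SE 0.19, adjusted p = 4.11e-08) with the smallest SE of the 10 genes, shared with Acta2. These genes serve different roles: Ppp1r14a encodes a protein that, once phosphorylated, keeps myosin light chains phosphorylated, while synemin and dystrophin link filaments to the membrane and its adhesion sites.

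Oxtr, the receptor through which the contraction is triggered, was 6.49, 5.70 and 5.49 in nulliparous and 7.11 and 7.53 in parous basal CD49f-high samples. The highest nulliparous sample, number 1, was nearer to the lower parous one than to the other nulliparous samples, and the rise was 1.43 (SE 0.25, adjusted p = 0.000472), or 2.7-fold. In the other subpopulations the parity difference of Oxtr lay between -0.23 and 0.29, and it passed the test in none of them (0 at an unadjusted p under 0.05 in 5 subpopulations). Its level was 6.59, 5.99 and 5.95 in nulliparous and 6.18, 6.78 and 6.26 in parous basal CD49f-low samples, so that the groups overlapped.

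The motor and thin filament genes rose by smaller amounts in basal CD49f-high cells. Myh11 was 11.41, 10.75 and 10.48 in nulliparous and 11.58 and 11.97 in parous samples, a rise of 0.89 (SE 0.22, adjusted p = 0.00793). Tagln was 10.35, 9.92 and 9.32 against 10.75 and 10.71, a rise of 0.87 (SE 0.25, adjusted p = 0.0277). In both genes the nulliparous samples were spread over more than the distance from the highest of them to the parous samples. Cnn1 was 11.86, 11.26 and 11.06 against 12.08 and 12.29, a rise of 0.80 (SE 0.23, adjusted p = 0.0235), and Myl9 was 11.57, 10.95 and 10.97 against 11.96 and 11.90, a rise of 0.77 (SE 0.24, adjusted p = 0.0388). Mylk (8.84, 8.49 and 8.28 against 9.11 and 9.14) and Acta2 (11.77, 11.47 and 11.45 against 11.95 and 11.96) did not pass the test, with differences of 0.59 (SE 0.21, adjusted p = 0.0804) and 0.39 (SE 0.19, adjusted p = 0.232).

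Nulliparous sample 1 was the highest of its group for all 10 genes in basal CD49f-high cells, and sample 3 the lowest for 9 of them; in total epithelial cells sample 1 was again highest for all 10 and sample 3 lowest for 9. Averaged over the 10 genes, the nulliparous basal CD49f-high samples were at 9.28, 8.79 and 8.55, and the parous ones at 10.04 and 10.30. The calls of Ppp1r14a, Synm, Dmd and Oxtr held when any 1 of the 35 samples was left out. The number of genes called was 4 without parous sample 3 or without nulliparous sample 3, 5 without nulliparous sample 2 and 9 without nulliparous sample 1. The share of all genes called moved too, to 7.89%, 6.6%, 5.88% and 11.6% in that order. Fitted on the 5 basal CD49f-high samples alone, 0 of 19937 genes were called (limma), although 2101 genes, all 10 of these among them, had an unadjusted p under 0.05. The smallest adjusted p of the set was then 0.0892, for Ppp1r14a, and that of Oxtr was 0.234. The SEs given above come from a spread shared by all 12 groups. The average spread was 0.257 in basal CD49f-high cells and 0.175 to 0.199 elsewhere, so these SEs may understate the error in basal CD49f-high cells. Leaving out single samples kept the shared spread.

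**Figure D2:**
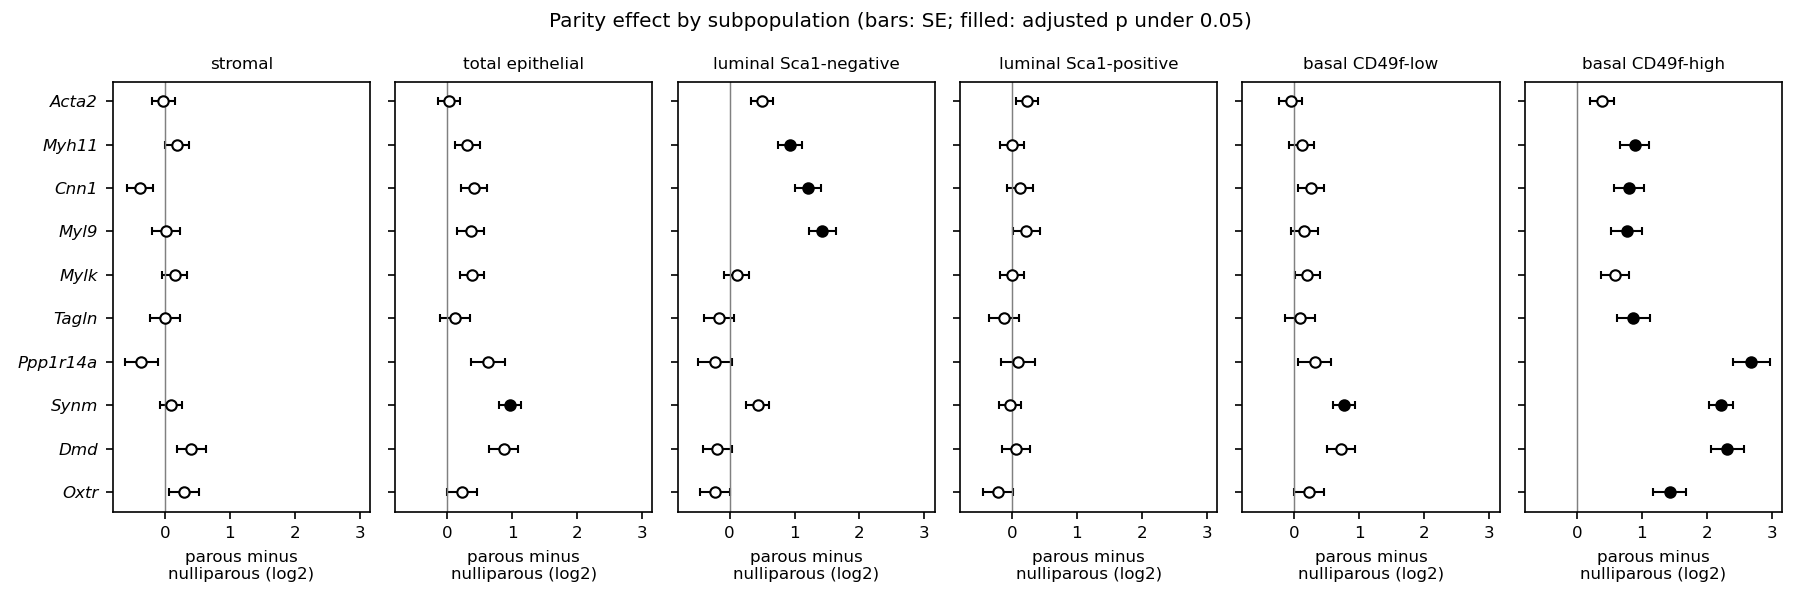
Parity effect, parous minus nulliparous in log2 units (x axis), of the 10 genes (y axis) in each of the 6 subpopulations, with bars of 1 SE and filled points where the adjusted p was under 0.05. Filled points number 8 in basal CD49f-high cells, 3 in luminal Sca1-negative cells, 1 each in total epithelial and basal CD49f-low cells and 0 in stromal and luminal Sca1-positive cells.

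In basal CD49f-low cells, 1 of the 10 genes rose with parity, where 0.968% of all genes were called. Synm was 8.11, 7.55 and 7.80 in nulliparous and 8.86, 8.48 and 8.44 in parous samples, a rise of 0.77 (SE 0.17, adjusted p = 0.0177). That call did not hold without parous sample 1 (adjusted p = 0.126), nulliparous sample 2 (0.16) or nulliparous sample 3 (0.0533), nor with the basal CD49f-low samples fitted alone (0.179). Dmd was 5.39, 5.88 and 5.48 in nulliparous and 6.54, 6.46 and 5.92 in parous samples; its difference of 0.72 did not pass (adjusted p = 0.146), although every parous sample was above every nulliparous one, as for 6.77% of all genes. Ppp1r14a, at 7.65, 7.98 and 7.26 against 8.10, 7.87 and 7.87, overlapped between the histories. Among markers of other cell types, the fibroblast and luminal means were lower in the parous samples. The pericyte and vascular smooth muscle mean was 5.98 in nulliparous and 5.90 in parous samples, and the endothelial mean 6.25 and 6.13. The immune mean was 5.36 and 5.49, and the skeletal muscle mean 5.69 and 5.73. The mean of the 10 fibroblast markers was 6.54 to 6.99 in nulliparous and 6.21 to 6.39 in parous samples, with 8 of 10 differences below 0 and 1 called, Lum (-1.70). The mean of the 13 luminal markers was 8.02 to 8.10 against 7.70 to 7.82, with 11 differences below 0 and none called (2 at an unadjusted p under 0.05, limma). Their part in the rise of Synm was not tested.

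The parity effects of the basal subpopulations were compared directly, a test added after the data had been seen. The effect was larger in CD49f-high cells for Ppp1r14a by 2.38 (SE 0.39, adjusted p = 0.00116), for Synm by 1.45 (SE 0.25, adjusted p = 0.00197) and for Dmd by 1.60 (SE 0.33, adjusted p = 0.00935), where 2.27% of all genes were called. The call of Dmd did not hold without parous CD49f-high sample 3, whose omission gave 1.15 (adjusted p = 0.0654). With only the 4 basal groups fitted, the calls of Synm (adjusted p = 0.2) and Dmd (0.231) did not hold and that of Ppp1r14a did. Oxtr had a difference of 1.20 (SE 0.34) with an adjusted p of 0.0548, and passed under 5 of 10 other settings and 5 of 35 omissions of a single sample, among them that of nulliparous CD49f-high sample 1 (0.00593). Myh11 also passed without that sample, so that the count rose from 3 to 5. For the other 6 genes the difference was between 0.39 and 0.79, and for Acta2 its 95% confidence interval ran from -0.08 to 0.99. Put the other way, each of the 10 genes had a lower mean in CD49f-high than in CD49f-low cells of nulliparous mice. The differences ran from -0.12 for Acta2 to -0.67 for Ppp1r14a. In parous mice 9 of the 10 were higher in CD49f-high cells, up to 1.71 for Ppp1r14a, with Mylk at -0.04. These differences within a history were not tested, and the share of all genes with the same signs was not counted. The genes varied together within basal groups, so that the counts are not of independent genes. CD49f-high samples were of 2000 cells and CD49f-low samples of 10000, and cell number and subpopulation cannot be told apart.

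**Figure D3:**
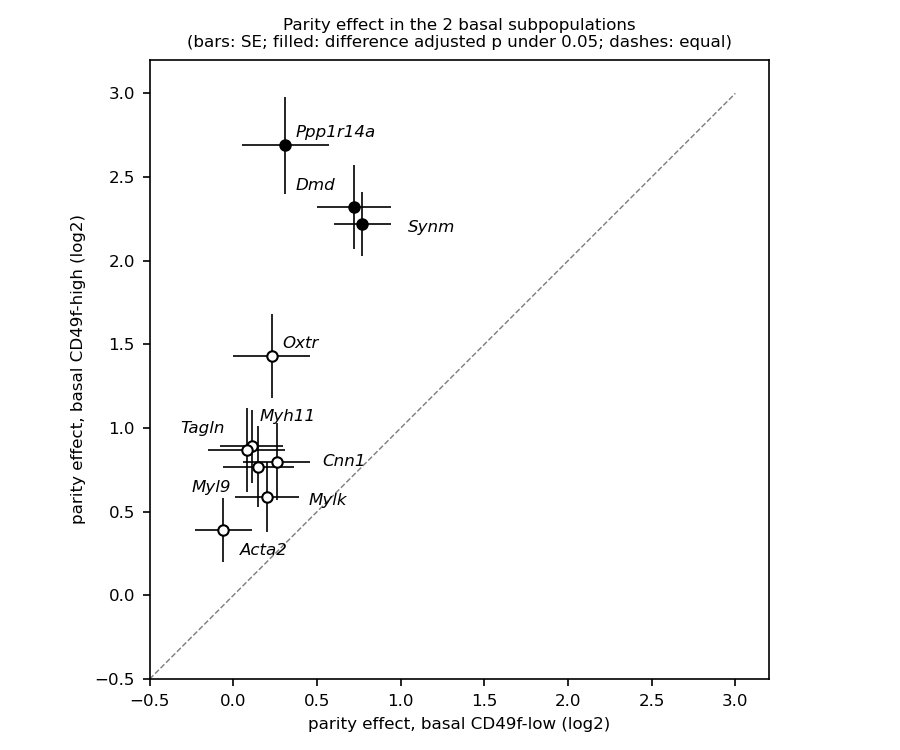
Parity effect in log2 units in basal CD49f-low cells (x axis) and basal CD49f-high cells (y axis) for the 10 genes, with bars of 1 SE; the dashed line marks equal effects and filled points mark a difference between the effects with an adjusted p under 0.05. All 10 points lie above the line, and Ppp1r14a, Dmd and Synm are filled.

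In luminal Sca1-negative cells, 3 of the 10 genes rose with parity, where 1.00% of all genes were called. Myl9 was 6.71, 5.89 and 6.41 in nulliparous and 8.27, 7.62 and 7.43 in parous samples, a rise of 1.43 (SE 0.21, adjusted p = 0.00023). Cnn1 was 6.94, 7.02 and 6.10 against 8.09, 7.83 and 7.78, a rise of 1.21 (SE 0.20, adjusted p = 0.00091). Myh11 was 6.79, 6.58 and 6.30 against 7.68, 7.45 and 7.34, a rise of 0.93 (SE 0.19, adjusted p = 0.0098). In each of them every parous sample was above every nulliparous one, as for 7.31% of all genes. The parous group means remained more than 3 log2 units below the basal group means. Myh11 did not hold without parous sample 1 (adjusted p = 0.0732) or nulliparous sample 3 (0.0803), and Cnn1 did not with these 6 samples fitted alone (0.0564). Acta2, at 0.50 (SE 0.17, adjusted p = 0.198), and Synm, at 0.43 (adjusted p = 0.289), did not pass. Tagln (-0.16), Ppp1r14a (-0.22), Dmd (-0.19) and Oxtr (-0.23) had differences below 0 that did not pass either.

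A basal keratin moved with these genes. Krt5, at 6.69 ± 0.51 in nulliparous luminal Sca1-negative cells (SD, n = 3), rose by 1.30 with parity (SE 0.18, adjusted p = 8.56e-05), while 1 of 7 basal keratinocyte-type markers passed in all. The mean of those markers was 6.57 to 6.97 in nulliparous and 7.02 to 7.11 in parous samples. The part of basal cells in the rise of Myl9, Cnn1 and Myh11 was not tested. The direct comparison of the parity effect between luminal Sca1-negative and basal CD49f-low cells called 0 of the 10 genes with limma, 5 at an unadjusted p under 0.05, where 0.301% of all genes were called. Myl9 came nearest, with a difference of 1.29 (SE 0.30, adjusted p = 0.0549, and 0.0276 to 0.0437 in the 5 omissions of a single sample that made it pass).

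In luminal Sca1-positive cells the parity differences of the 10 genes lay between -0.22 and 0.23, and none passed (0 at an unadjusted p under 0.05), where 0.607% of all genes were called. The basal keratin gene Krt14 rose there by 1.54 (SE 0.22, adjusted p = 0.00011). The mean of the 7 basal keratinocyte-type markers was 6.33 to 6.70 in nulliparous and 6.82 to 7.10 in parous samples. The endothelial mean was 5.30 to 5.62 and 5.82 to 6.15, and the pericyte and vascular smooth muscle mean was 5.65 in both histories. In stromal cells the differences lay between -0.38 (Cnn1) and 0.41 (Dmd), and none passed (0 at an unadjusted p under 0.05), where 0.597% of all genes were called. In the parous stromal samples Krt14 fell by 2.00, Krt5 fell by 1.85 and the endothelial gene Pecam1 fell by 1.55. The stromal mean of the basal keratinocyte-type markers was 6.64 to 6.87 in nulliparous and 5.93 to 6.07 in parous samples. The endothelial mean was 7.26 to 7.83 and 6.85 to 7.11. The level of Acta2 in stromal cells was 10.26, 10.58 and 10.28 in nulliparous and 10.69, 10.34 and 10.02 in parous samples.

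Total epithelial cells, which contain both layers, gave 1 call, where 0.446% of all genes were called. Synm was 7.74, 7.48 and 7.19 in nulliparous and 8.39, 8.42 and 8.51 in parous samples, a rise of 0.97 (SE 0.17, adjusted p = 0.00391). Dmd was 5.79, 5.64 and 4.99 against 6.71, 6.21 and 6.11, and its difference of 0.87 did not pass (adjusted p = 0.0885), but did without either parous basal CD49f-high sample (0.0441 and 0.0443), which enter only through the shared spread. The mean of the basal keratinocyte-type markers was 9.27 in both histories, that of the luminal markers 9.12 and 9.09. All 10 fibroblast markers had differences below 0, with means of 6.86 and 6.44, but none was called (1 at an unadjusted p under 0.05, limma). Of 12 pericyte and vascular smooth muscle markers Mcam rose (0.73), and their means were 5.76 and 5.84. The part of these markers in the rise of Synm was not tested.

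Averaged over the 4 sorted epithelial subpopulations, 6 of the 10 genes rose with parity and none fell, where 6.20% of all genes were called. Synm rose by 0.85 (SE 0.09, adjusted p = 4.48e-07), Dmd by 0.73, Ppp1r14a by 0.72, Myl9 by 0.64, Cnn1 by 0.60 and Myh11 by 0.48. Basal CD49f-high cells had most of the rise in Ppp1r14a (2.69), Dmd (2.32) and Synm (2.22). In the other sorted epithelial subpopulations these genes differed by -0.22 to 0.31, -0.19 to 0.72 and -0.03 to 0.77. Mylk, Tagln, Acta2 and Oxtr had differences of 0.23, 0.17, 0.27 and 0.30 that did not pass. A moderated F test asked whether the parity effect differed among the 6 subpopulations. It passed for 6 of the 10 genes, where 2.80% of all genes were called: Synm (adjusted p = 2.07e-05), Ppp1r14a (0.000164), Dmd (0.000306), Cnn1 (0.0126), Oxtr (0.0277) and Myl9 (0.0297). It did not pass for Myh11 (0.118), Tagln (0.385), Acta2 (0.526) or Mylk (0.721). The call of Oxtr did not hold without parous sample 3 (adjusted p = 0.166), nulliparous sample 2 (0.0907) or nulliparous sample 3 (0.0894) of basal CD49f-high cells. That of Myl9 did not hold without luminal Sca1-negative parous sample 1 (0.104), nulliparous sample 2 (0.108) or nulliparous sample 3 (0.0547), and Myh11 passed without nulliparous basal CD49f-high sample 1 (0.0143).

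Other genes of the same machinery were read from lists in basal CD49f-high cells, where 9.06% of all genes were called and 4.01% called higher. Of 25 further smooth muscle contractile genes, 7 rose with parity and 2 fell, with a median of 0.22. The actin-associated genes Synpo2 (1.33, SE 0.31), Pdlim3 (1.21, SE 0.25), Smtn (1.06, SE 0.20) and Lmod1 (0.93, SE 0.26) rose, and the non-muscle myosin heavy chain gene Myh9 (-0.62, SE 0.12) and the calponin gene Cnn3 (-0.56, SE 0.16) fell. Of 16 actin anchorage and focal adhesion genes 2 rose, the collagen-binding integrin chain Itga1 (1.86, SE 0.27) and the focal adhesion gene Zyx (0.71, SE 0.15), and none fell. Of 15 dystrophin complex and intermediate filament partners 1 passed, the filament gene Vim (0.66, adjusted p = 0.0453), and no sarcoglycan, syntrophin or dystrobrevin gene measured did. Of 19 SRF and myocardin-family regulators 1 passed, Mef2c (0.79, SE 0.19). The last 3 lists had 2, 1 and 1 calls, and whether such small counts differ from the share of all genes was not tested.

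Of 27 oxytocin and calcium signalling genes, 3 rose and 5 fell in basal CD49f-high cells, against 9.06% of all genes called. Their median was 0.01. Plcb1, a phospholipase C that acts below the receptor's G protein, rose by 1.16 (SE 0.27), Gna11, a G protein alpha subunit of the class the receptor uses, by 0.94 (SE 0.20) and the calmodulin gene Calm3 by 0.70 (SE 0.21). The protein kinase C genes Prkca (-1.07, SE 0.22) and Prkcd (-0.50, SE 0.14), the kinase gene Camk2d (-0.87, SE 0.20) and the calcium pump gene Atp2b1 (-0.80, SE 0.21) were among those that fell. Plcb1 also rose in total epithelial cells by 1.26, in basal CD49f-low cells by 1.25 and in luminal Sca1-positive cells by 1.10, where Oxtr did not pass the test. In luminal Sca1-negative cells Gna11 rose by 0.79 and Rgs2, which limits signalling by such G proteins, by 0.80.

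**Figure D4:**
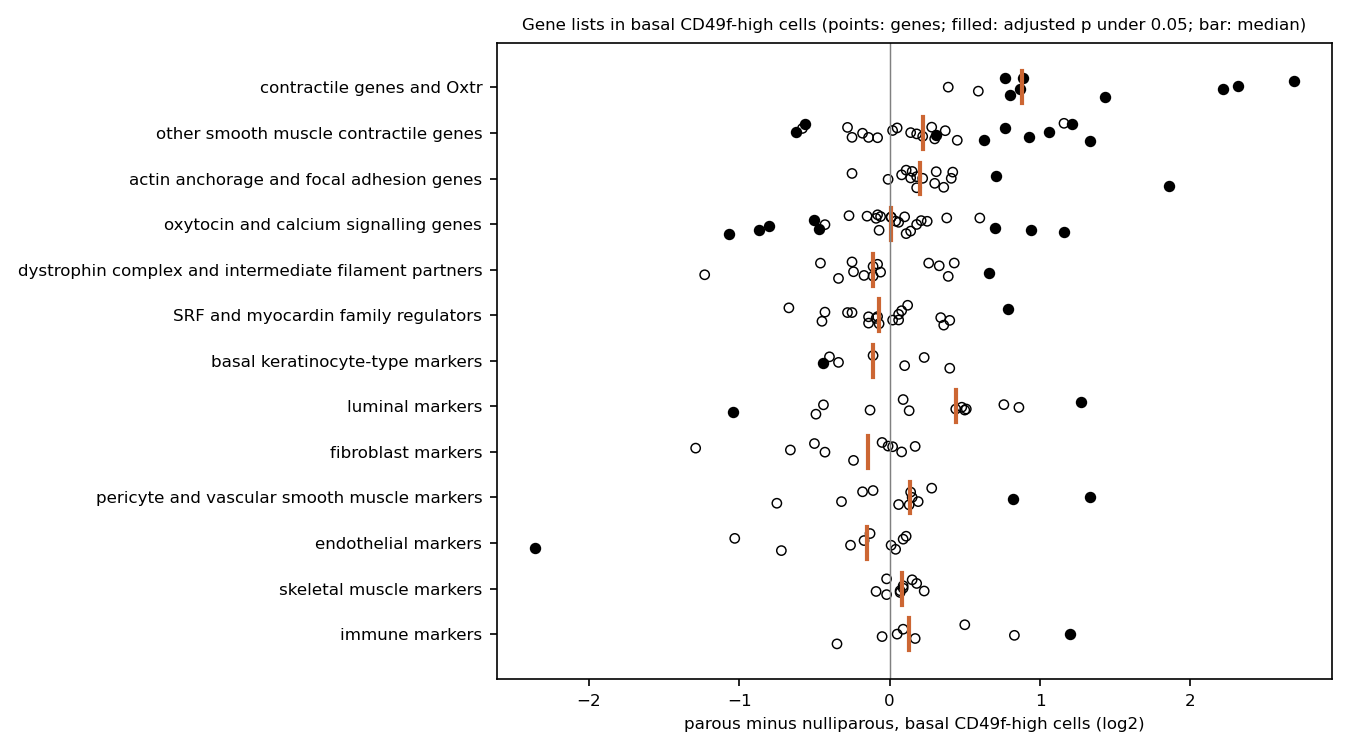
Parity effect in basal CD49f-high cells in log2 units (x axis) of the genes of 13 lists (y axis), with 1 point per gene, filled where the adjusted p was under 0.05, and an orange bar at each list's median; vertical scatter within a list has no meaning. The contractile genes and Oxtr have a median of 0.88, and the medians of the other lists lie nearer to 0.

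Markers of other cell types in basal CD49f-high cells were read beside these rises. Of all genes 9.06% were called there and 4.01% called higher. Whether counts this small in short lists differ from those shares was not tested. Of 12 pericyte and vascular smooth muscle markers 2 rose, Mcam (1.33) and Higd1b (0.82), a larger share than the 4.01% of all genes. Mcam was also among the 10 genes outside the set with profiles most like its mean. The mean of the 12 markers was 5.79 to 5.91 in nulliparous and 5.90 to 6.07 in parous samples. In stromal cells the mean of the same 12 markers was 7.16 in nulliparous and 7.32 in parous samples. Of 13 luminal markers Krt7 rose (1.27) and Prom1 fell (-1.04), with means of 7.25 to 7.87 and 7.69 to 7.80. Of 7 basal keratinocyte-type markers only Itgb4 passed, lower at -0.44, with means of 9.62 to 9.71 and 9.55 to 9.62. Krt5 was 11.64 ± 0.18 and 11.75 ± 0.17, and Krt14 11.06 ± 0.09 and 10.95 ± 0.06. None of 10 fibroblast and none of 10 skeletal muscle markers passed; fibroblast means were 5.83 to 6.37 in nulliparous and 5.78 to 5.90 in parous samples, and skeletal muscle means 5.60 to 5.83 and 5.74 to 5.88. The endothelial gene Emcn fell (-2.36) and the macrophage gene Cd68 rose (1.20), each the only call of its list, whose means were 5.60 to 6.54 against 5.32 to 5.80 and 5.09 to 5.72 against 5.45 to 5.82. The part of these markers in the rises of the contractile genes was not tested.

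The 10 genes were also compared with each other, as a description over the 12 group means, which come from the same arrays and lie mostly in a high and a low cluster. Pearson's r between pairs of the genes was 0.363 to 0.995, with a median of 0.822 over 45 pairs. Myh11 followed the mean of the other 9 most closely (r = 0.985), and Dmd (0.599) and Oxtr (0.694) least. Of genes outside the set, Fmod (0.992), Tshz2 (0.99), Niban1 (0.988), Nexn (0.984), Chst15 (0.98), Mdk (0.979), Sobp (0.978), Lhfp (0.978), Rai2 (0.974) and Mcam (0.974) had the profiles most like the mean of the 10. For Oxtr they were Pnck (0.978), Zdhhc8 (0.974), Alkbh4, Krt9 and Trnp1 (0.964 each). Within groups, the deviations of the 11 basal samples from their group means correlated positively for all 45 pairs of the genes, with r of 0.467 to 0.971 and a median of 0.727. In the 12 luminal samples the same measure ran from -0.754 to 0.885 with a median of -0.044. In the 6 stromal samples it ran from -0.863 to 0.99 with a median of 0.11. Basal samples that were high for 1 of the genes within their group thus tended to be high for the others. Pairs of other genes were not compared in this way.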

How the data were processed

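Per the labels, RNA of 2000 or 10000 sorted cells was amplified and hybridised to 1-colour Affymetrix arrays. The values deposited by the authors are on a log2 scale, from 1.74 to 13.28, with array medians of 5.81 to 5.92, not centred per gene. Per the submitters' processing notes the affy software was used; how the values were normalized and summarised, and on which build, is not given in the sources used here.

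Of 34760 probe sets, 21640 had 1 gene symbol in the supplied annotation, 1321 several and 11799 none. Genes with several probe sets (954) were represented by that of highest mean, which gave 19937 genes. With limma 3.58.1 under R 4.3.3, 1 fit took in the 35 samples, with a mean for each of the 12 groups and no covariate, by lmFit and eBayes (trend = TRUE) and Benjamini-Hochberg adjustment over all genes; a gene was called at an adjusted p under 0.05. Errors marked SE are from this fit. Confidence intervals are 95%, with the fit's degrees of freedom. Differences between parity effects were tested as contrasts, or with a moderated F test. The number of arrays limits the precision, and each replicate is a pool of 5 mice. The fit was tested on simulated data.

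The 10 genes and the 12 other lists were chosen with earlier results of these data known. All 10 genes were described; of each other list at most 4 called genes per direction were named, the largest first, and the genes most alike in profile were the 10 (for Oxtr the 5) of highest r. In the lists, 9 genes lacked a probe set with their symbol alone and were not counted; Trp63, Myocd and Des are in more than 1 list. The comparison of parity effects between the basal subpopulations was added after seeing the data.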

Additional observations from a re-analysis of the deposited data

Results flagged for a closer look

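The parity effect differed among the 6 subpopulations, by the moderated F test over all genes, for Synm (F = 20.19), Ppp1r14a (F = 15.44), Dmd (F = 13.77), Cnn1 (F = 7.30), Oxtr (F = 6.20) and Myl9 (F = 6.08). The parity effect was larger in basal CD49f-high than in basal CD49f-low cells for Ppp1r14a by 2.38, for Dmd by 1.60 and for Synm by 1.45 log2 units. Groups of 2 or 3 samples are too small for a test of single samples that stand apart.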

How the results depend on the processing

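No alternative reversed a called value. In basal CD49f-high cells the number of the 10 genes called, 8, was 5 with array weights, 4 without nulliparous number 3 in all subpopulations, 0 with only the groups compared, and 4 to 9 with single samples left out. With array weights 2.96% of all genes were called there. In total epithelial cells the count, 1, was 2 with array weights, with the replicate block and without nulliparous number 1, and 1 to 2 with single samples left out. In basal CD49f-low cells it was 0, from 1, with only the groups compared, and 0 to 1 with single samples left out. For basal CD49f-high against CD49f-low cells it was 0 to 1 with single samples left out. For the parity effect in luminal Sca1-negative against basal CD49f-low cells the count, 0, was 1 with array weights, without dim probe sets, with the replicate block, with the pool as a random block and without nulliparous number 1, and 0 to 1 with single samples left out. For the parity effect in basal CD49f-high against CD49f-low cells the count, 3, was 5 with the replicate block and 1 with only the groups compared, and 2 to 5 with single samples left out. The cause of these changes was not tested, except that fits of only the groups compared hold fewer samples.

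The replicate block, which takes samples of the same number as related though the labels do not say so, raised the number of all genes called in basal CD49f-high cells to 2334 (11.7%), from 1806. It also called Oxtr (adjusted p = 0.0145) and Myh11 (0.0224) in the comparison of parity effects between the basal subpopulations. Deviations from the group means of samples with the same number correlated at -0.05 to 0.225 between histories (over 0.1 in 4 of 17 pairs). Across subpopulations they correlated at 0.029 to 0.338 in nulliparous (28 of 45 pairs over 0.1) and 0.012 to 0.201 in parous samples (15 of 40). Since not every pair was over 0.1, the numbers were not taken as pairs. As a hint from the data and not the design, 35 of 35 samples deviated most like those of their own number in the other subpopulations of their history, and 23 of 32 most like their own number in the other history. With the pool, history and number together, as a random block, Oxtr was also called in the basal comparison (0.0292). The alternatives changed 86 of 6290 values of single genes from called to uncalled or the reverse; a change of sign between uncalled values was not counted. The number of arrays limits the depth of these comparisons.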
